A study of Mus musculus with 9 samples.

Results

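The response that CHIR99021 and AICAR had in common was described in J1 mouse embryonic stem cells. The 6 treated arrays, 3 of each compound, were set against the 3 arrays of the solvent control DMSO, out of 9 arrays in all. A gene belonged to the shared response when all 6 treated arrays lay on the same side of all 3 DMSO arrays and the mean of both treatments differed from DMSO in the limma fit. By this rule 4794 features rose and 3523 fell, out of 26864 tested. The rule and the test read the same 9 arrays, so the test is not independent of membership.

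Every array carried RNA of the J1 line, which derives from the 129S4/SvJae strain and grew without feeder cells on gelatin in Knockout Serum Replacement medium. All 3 groups received 1000 U/mL of leukaemia inhibitory factor (LIF), and exposure lasted 24 h, to DMSO, to CHIR99021 at 3 µM or to AICAR at 1 mM. RNA labelled with Cy3 alone was hybridised to Agilent arrays. The labels number 3 replicates per group and do not call them separate cultures, so errors and p-values measure only how far these samples spread, possibly for technical reasons. Both treatments were compared with the same 3 DMSO arrays, which all lay on 1 slide, and the CHIR99021 and AICAR arrays each filled a slide of their own. A deviation of the DMSO arrays therefore enters both comparisons in the same direction, and it cannot be told apart from a response shared by both compounds. For this reason no overlap between the comparisons was tested, and their values are given side by side.

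Values are log2 signals relative to the 75th percentile of the same array, so a value of 0 is a spot as bright as that percentile and a difference of 1 is a 2-fold change. Signal well above background was found for 62.8% to 67.2% of the spots, depending on the array. Within a group the SD over arrays had a median of 0.0748 in DMSO, 0.0851 in CHIR99021 and 0.111 in AICAR on the log2 scale. In bulk RNA, fewer cells of a type and less RNA per cell cannot be told apart.

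CHIR99021 inhibits glycogen synthase kinase 3 (GSK3). This kinase marks beta-catenin for destruction and also phosphorylates many other proteins, among them Myc and metabolic enzymes, and its inhibition supports self-renewal of mouse embryonic stem cells. AICAR is taken up and phosphorylated to an analogue of AMP, which activates the energy sensor AMPK, a kinase that favours catabolic over biosynthetic pathways and acts on lysosomal and autophagic genes through TFE3 and TFEB. Mouse embryonic stem cells in serum replacement with LIF move between a naive state, marked by factors such as Klf4, Esrrb and Tfcp2l1, and a state closer to the epiblast after implantation, marked by Otx2, Fgf5 and the de novo DNA methyltransferases.

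Shared rises made up 17.8% of all tested features and shared falls 13.1%, by limma with Benjamini-Hochberg adjustment at 0.05. These shares are the background against which each gene list is read. The lists hold only features with a gene symbol. Over the 16089 tested features with a symbol the shares were 16.8% and 15.4%, with a median difference of 0.0024 beside 0.041 over all tested features. Against that set the falls of a list stand out less and the rises slightly more. The array rule alone was met by 4879 features above DMSO (18.2%) and 3600 below it (13.4%). Most shared changes were small. The mean change stayed under 1.5-fold for 2801 of the rises and 1909 of the falls, while 382 rises and 323 falls reached 2-fold under each compound. A gene symbol was known for 2704 of the rises and 2473 of the falls, and the rest included 842 and 315 probes named only by a chromosome interval. Not every member passed against DMSO under each compound alone. Of the rises, 457 did not pass with CHIR99021 alone and 363 did not with AICAR alone, and of the falls 711 and 178. Over all features, 30.4% were higher and 20.5% lower than DMSO under CHIR99021 by limma, and 30.9% higher and 29.6% lower under AICAR. A fit scaled on the spike-in transcripts, viral E1A RNAs added to each sample at labelling, called 1855 rises and 1987 falls.

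The shared rises were ranked by the difference of measured signals under the weaker of both compounds. Many at the top of that rank were not well above background in control cells, so only a lower bound of their fold is known and their order is not. Among all members, 144 rises were not well above background on any DMSO array and 68 falls on any treated array. They passed the background filter through the brighter side alone, so their p-values are not independent of that filter. Bhmt2 encodes a methyltransferase of homocysteine, and Dmgdh a mitochondrial dehydrogenase that breaks down dimethylglycine, a product of choline oxidation. Bhmt2 had log2 signals of -7.26, -7.60 and -7.66 on the DMSO arrays, -0.95, -1.27 and -0.96 on the CHIR99021 arrays and -3.97, -3.79 and -3.65 on the AICAR arrays. It was not well above background in DMSO and lay at least 32.5-fold higher under CHIR99021 and 4.86-fold higher under AICAR (limma adjusted p = 1.37e-07 for the mean of both). Such a bound sets the bright group against the dimmest signal that counted as above background on the dim arrays, and it holds for the processed signal. Dmgdh had log2 signals of -8.15, -8.19 and -6.32 on the DMSO arrays, -0.48, -0.32 and -0.28 on the CHIR99021 arrays and -4.84, -4.93 and -4.47 on the AICAR arrays. DMSO array 3 was the highest of its group, yet the groups did not overlap and the bounds were 53-fold and 2.53-fold (limma adjusted p = 2.63e-05).

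Other genes were not well above background in control cells either. S1pr1, the receptor for sphingosine 1-phosphate, ranged from -8.16 to -7.75 in DMSO, -3.15 to -3.06 under CHIR99021 and -5.23 to -4.89 under AICAR, at least 7.89-fold and 2-fold higher (limma adjusted p = 2.39e-07). The bounds were 4.39-fold and 2.49-fold for Edil3, a secreted protein that binds integrins, and 7.45-fold and 4.09-fold for Smkr-ps. Serpinb1c, a member of a family of protease inhibitors, and Lingo1, a membrane protein known from neurons, had bounds between 1.48-fold and 2.71-fold. CHIR99021 minus AICAR was -0.40 ± 0.11 for Serpinb1c (limma adjusted p = 0.0167) and -0.39 ± 0.25 for Lingo1 (limma adjusted p = 0.22), so a difference between the compounds passed for Serpinb1c and did not pass for Lingo1.

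Nags and Mal were well above background on all 9 arrays, and Nod2 and Pitx1 on part of the DMSO arrays. Nags encodes N-acetylglutamate synthase, whose product switches on the first step of the urea cycle. Its log2 signals were -3.39, -3.46 and -3.43 on the DMSO arrays, -1.08, -0.96 and -0.91 on the CHIR99021 arrays and -0.47, -0.41 and -0.47 on the AICAR arrays. The groups were tight and well apart, with differences from DMSO of 2.44 ± 0.055 under CHIR99021 and 2.98 ± 0.055 under AICAR (SE, n = 3 arrays per group; limma adjusted p = 6.03e-08). Mal, a membrane proteolipid of apical transport, had signals of -4.73, -4.50 and -4.40 on the DMSO arrays, -1.71, -2.14 and -1.74 on the CHIR99021 arrays and -0.59, -0.64 and -0.57 on the AICAR arrays, a rise of 2.68 ± 0.13 under CHIR99021 and 3.94 ± 0.13 under AICAR (limma adjusted p = 4.31e-07). Nod2, a cytosolic sensor of bacterial cell wall fragments, rose by 2.52 ± 0.10 under CHIR99021 and 3.29 ± 0.10 under AICAR, a difference of measured signals with 2 of its 3 DMSO arrays well above background. Pitx1, a homeodomain factor of hindlimb and pituitary, rose by 2.80 ± 0.25 under CHIR99021 and 2.64 ± 0.25 under AICAR, a difference of measured signals with 1 DMSO array well above background.

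**Figure D1:**
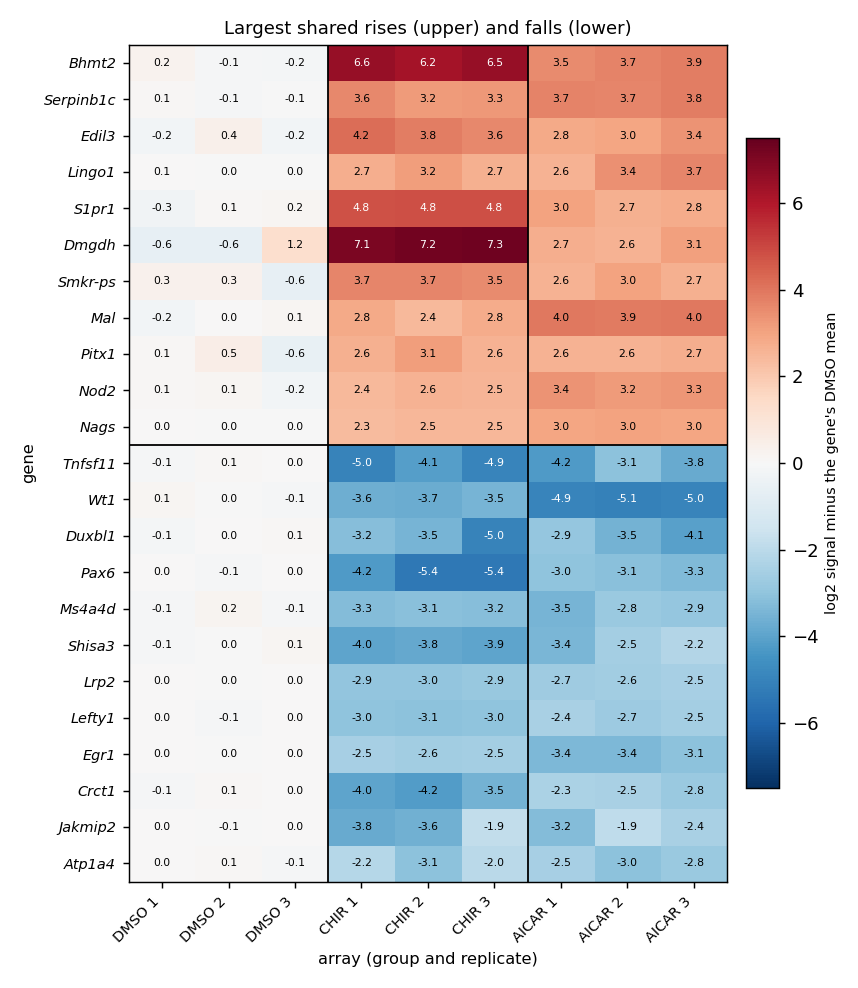
Log2 signal minus the gene's DMSO mean on each of the 9 arrays (columns, by group and replicate) for the largest shared rises (upper block, 11 genes) and the largest shared falls (lower block, 12 genes), ranked by the smaller change of both compounds. Every treated array of a rise is red and every treated array of a fall is blue, and for genes not well above background on one side the number is a difference of measured signals, not a fold change.

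Among the largest shared falls, the transcription factors Wt1 and Pax6, the endocytic receptor Lrp2 and the Nodal inhibitor Lefty1 had clear signals in control cells. Wt1, a zinc finger factor of kidney and gonad development, had log2 signals of 1.90, 1.73 and 1.68 on the DMSO arrays, -1.88, -1.97 and -1.72 on the CHIR99021 arrays and -3.15, -3.30 and -3.20 on the AICAR arrays. It fell by 3.63 ± 0.085 under CHIR99021 and 4.99 ± 0.085 under AICAR (limma adjusted p = 5.66e-08), and the AICAR arrays were the lowest. Lrp2, the large endocytic receptor megalin, had signals of 2.41, 2.36 and 2.39 on the DMSO arrays, -0.55, -0.57 and -0.47 on the CHIR99021 arrays and -0.28, -0.25 and -0.11 on the AICAR arrays. All treated arrays lay below DMSO, and it fell by 2.91 ± 0.058 under CHIR99021 and 2.60 ± 0.058 under AICAR (limma adjusted p = 6.31e-08). Egr1, an immediate early factor induced by ERK signalling, stood at 0.80 to 0.89 in DMSO, -1.76 to -1.66 under CHIR99021 and -2.53 to -2.23 under AICAR, differences of -2.54 ± 0.084 under CHIR99021 and -3.27 ± 0.084 under AICAR (limma adjusted p = 1.51e-07).

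Several falls ended not well above background. Tnfsf11, the cytokine RANKL of osteoclast formation, went from -3.15 to -2.97 in DMSO to levels not well above background on any of the 6 treated arrays, at least 8.11-fold lower under CHIR99021 and 9.36-fold lower under AICAR. Pax6, a factor of eye and forebrain, was not well above background on the 3 CHIR99021 arrays, at least 16.6-fold lower, and still measured under AICAR, where it fell by 3.15 ± 0.28 (limma adjusted p = 3.91e-05). Shisa3, which holds back Wnt and FGF receptors, was at least 4.47-fold and 4.55-fold lower, and Jakmip2 at least 3.51-fold and 4.07-fold. Ms4a4d, a membrane protein in the family of the B cell antigen CD20, was at least 2.86-fold and 3.34-fold lower. Duxbl1, a double homeobox gene, was at least 8.6-fold lower under CHIR99021, and 1 AICAR array remained above background. Atp1a4, a sodium pump subunit of testis, fell by 2.42 ± 0.27 under CHIR99021 and 2.77 ± 0.27 under AICAR, and Crct1 by 3.88 ± 0.17 under CHIR99021 and 2.53 ± 0.17 under AICAR with 2 of 3 CHIR99021 arrays above background.

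Naive pluripotency factors rose more often than they fell. Of 22 tested, 8 rose under both compounds and 1 fell, 36.4% and 4.55% of the list. The median difference was 0.19 beside 0.041 over all tested features. Without the array rule, limma at an unadjusted p under 0.05 put 11 genes of the list higher and 6 lower than DMSO. The naive factors described in detail here are among those that rose. With scaling on the spike-in transcripts 5 genes of the list rose, and with the treated arrays as 1 group, where the difference between the compounds counts as error, 5. Tfcp2l1, a factor downstream of LIF and of GSK3 inhibition, had log2 signals of 2.80, 2.75 and 2.84 on the DMSO arrays, 5.39, 5.38 and 5.38 on the CHIR99021 arrays and 3.99, 3.89 and 4.0 on the AICAR arrays. The CHIR99021 arrays were the highest and the AICAR arrays lay in between, with differences from DMSO of 2.59 ± 0.049 under CHIR99021 and 1.16 ± 0.049 under AICAR (limma adjusted p = 1.37e-07). Klf4, a zinc finger factor activated by STAT3, had signals of 4.12, 4.14 and 4.13 on the DMSO arrays, 5.22, 5.18 and 5.17 on the CHIR99021 arrays and 4.96, 4.96 and 4.95 on the AICAR arrays. It rose by 1.06 ± 0.039 under CHIR99021 and 0.83 ± 0.039 under AICAR (limma adjusted p = 5.89e-07), and the compounds differed by 0.23 ± 0.039 (limma adjusted p = 0.00104). Prdm14, a repressor of FGF signalling and of DNA methyltransferase genes, rose by 1.16 ± 0.070 under CHIR99021 and 0.94 ± 0.070 under AICAR (limma adjusted p = 5.32e-06). Esrrb, an orphan nuclear receptor, rose by 0.73 ± 0.052 under CHIR99021 and 0.44 ± 0.052 under AICAR, Tbx3, a T-box factor, by 1.13 ± 0.050 under CHIR99021 and 0.37 ± 0.050 under AICAR, and Tcl1, an Akt cofactor, by 0.53 ± 0.070 under CHIR99021 and 1.05 ± 0.070 under AICAR. Tbx3 did not pass with scaling on the spike-in transcripts.

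Of the genes for Oct4, Sox2 and Nanog, Sox2 alone met the rule. Sox2, partner of Oct4, rose by 0.26 ± 0.060 under CHIR99021 and 0.36 ± 0.060 under AICAR (limma adjusted p = 0.0014), and this call did not pass with scaling on the spike-in transcripts. Pou5f1, which encodes Oct4, had signals of 4.04, 4.16 and 4.17 on the DMSO arrays, 4.15, 4.59 and 4.17 on the CHIR99021 arrays and 4.94, 4.30 and 4.51 on the AICAR arrays. The CHIR99021 arrays overlapped the DMSO arrays, and the mean difference was 0.32 ± 0.15 (limma adjusted p = 0.105). Nanog differed by 0.20 ± 0.089 on average (limma adjusted p = 0.086) and its arrays overlapped too. Klf2 stood 0.54 ± 0.064 above DMSO under CHIR99021 and 0.052 ± 0.064 under AICAR, so it did not meet the rule, which it did with quantile normalization and with the deposited log2 table. Among the wider list of 17 core regulators 1 rose and 10 fell, 58.8% against the 13.1% of all features. Utf1, a chromatin factor of pluripotent cells, fell by 1.22 ± 0.062 under CHIR99021 and 1.16 ± 0.062 under AICAR (limma adjusted p = 1.62e-06). L1td1, an RNA-binding protein, fell by 0.98 ± 0.049 under CHIR99021 and 1.41 ± 0.049 under AICAR, Foxd3, a forkhead repressor, by 1.38 ± 0.075 under CHIR99021 and 1.74 ± 0.075 under AICAR, and Dppa4 by 0.61 ± 0.049 under CHIR99021 and 1.01 ± 0.049 under AICAR. Lin28a, a regulator of let-7 microRNAs, was -0.035 ± 0.069 from DMSO under CHIR99021 and -1.34 ± 0.069 under AICAR, and 1 CHIR99021 array reached into the DMSO range. In the fit with the treated arrays as 1 group, 6 core regulators fell.

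Primed epiblast genes fell together. Of 23 tested, 18 fell under both compounds and 0 rose, 78.3% of the list beside 13.1% of all features, and the median difference was -1.40, with -0.98 under CHIR99021 and -1.16 under AICAR. With scaling on the spike-in transcripts 16 genes of the list fell. Limma at an unadjusted p under 0.05 with the same array rule gave 0 rises in the list, and without the array rule 1. Over all features only 85 above and 77 below DMSO met the array rule and failed the test. A looser p under that rule can therefore add little, here and in the lists below. Otx2, the homeodomain factor that drives exit from the naive state, had log2 signals of 2.95, 3.02 and 2.98 on the DMSO arrays, -2.29, -2.03 and -2.23 on the CHIR99021 arrays and 1.66, 1.77 and 1.78 on the AICAR arrays. All treated arrays lay below DMSO, far more so under CHIR99021, and the differences were -5.17 ± 0.073 under CHIR99021 and -1.25 ± 0.073 under AICAR (limma adjusted p = 8.76e-08). Fgf5, a growth factor of the epiblast after implantation, stood at -4.65 to -4.57 in DMSO and was not well above background on any of the 6 treated arrays, at least 2.76-fold lower under CHIR99021 and 3.23-fold under AICAR. Car14, a membrane carbonic anhydrase, fell by 2.19 ± 0.079 under CHIR99021 and 1.60 ± 0.079 under AICAR (limma adjusted p = 6.06e-07) and Sall2, a zinc finger factor, by 1.93 ± 0.061 under CHIR99021 and 1.48 ± 0.061 under AICAR (limma adjusted p = 3.37e-07). Zic2 fell by 0.98 ± 0.073 under CHIR99021 and 2.15 ± 0.073 under AICAR (limma adjusted p = 9.89e-07). Lef1, a nuclear partner of beta-catenin, met the rule only narrowly. Its signals were 2.47, 2.58 and 2.40 on the DMSO arrays, 2.33, 2.38 and 2.32 on the CHIR99021 arrays and 0.075, 0.015 and 0.0033 on the AICAR arrays. CHIR99021 alone did not pass against DMSO (limma adjusted p = 0.078), while AICAR lowered it by 2.45 ± 0.058.

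**Figure D2:**
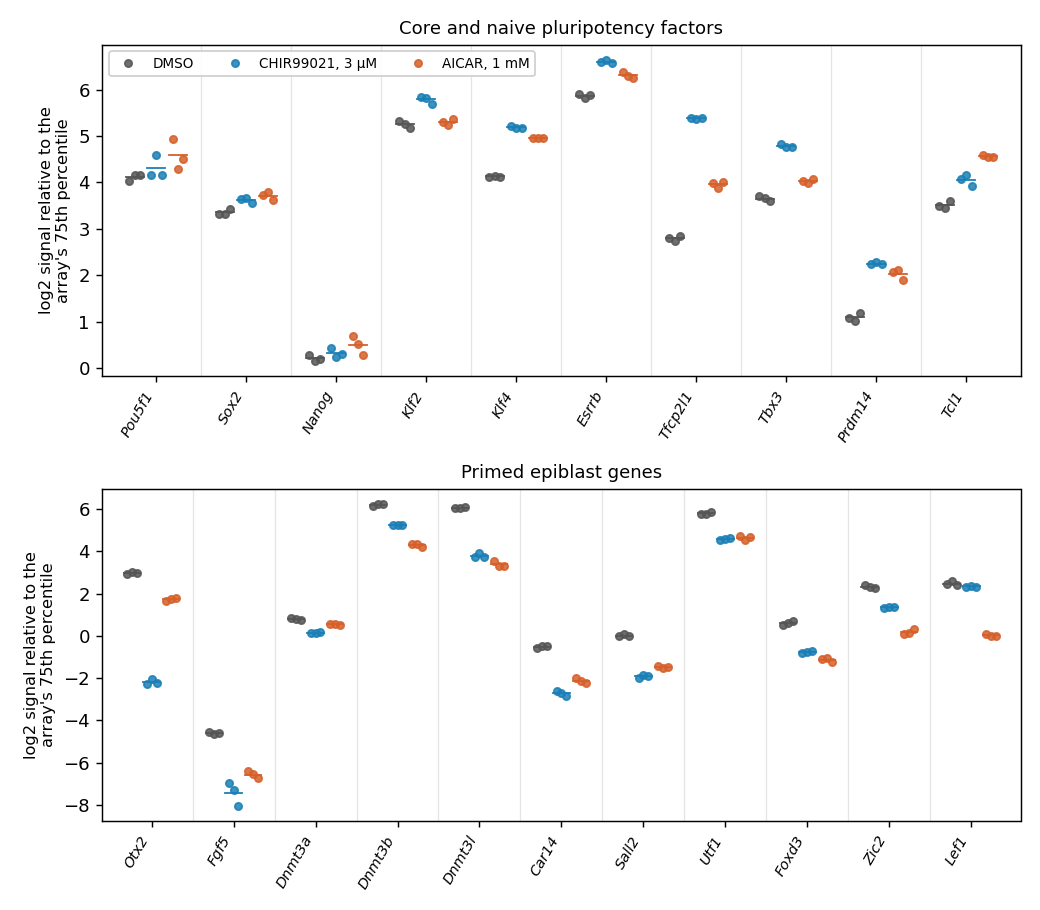
Log2 signal relative to the array's 75th percentile for core and naive pluripotency factors (upper panel) and primed epiblast genes (lower panel), with 1 point per array, 3 arrays per group and a bar at each group mean. Klf4, Esrrb, Tfcp2l1, Tbx3, Prdm14 and Tcl1 lie above DMSO on all treated arrays, Pou5f1 and Nanog overlap, and the lower genes lie below DMSO on all treated arrays.

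Genes that set DNA methylation fell more often than they rose. Of 20 tested, 7 fell and 2 rose, 35% and 10%, with a median difference of -0.22. Dnmt3l, the catalytically inactive partner of the de novo enzymes, had log2 signals of 6.06, 6.07 and 6.09 on the DMSO arrays, 3.76, 3.92 and 3.74 on the CHIR99021 arrays and 3.54, 3.33 and 3.34 on the AICAR arrays. It fell by 2.27 ± 0.074 under CHIR99021 and 2.67 ± 0.074 under AICAR (limma adjusted p = 1.82e-07), with the AICAR arrays slightly lower. Dnmt3b, a de novo methyltransferase, had signals of 6.16, 6.24 and 6.24 on the DMSO arrays, 5.26, 5.27 and 5.25 on the CHIR99021 arrays and 4.36, 4.34 and 4.21 on the AICAR arrays. It fell by 0.95 ± 0.054 under CHIR99021 and 1.91 ± 0.054 under AICAR (limma adjusted p = 3.99e-07), and its 3 probes all lay below DMSO. Dnmt3a, the other de novo enzyme, fell by 0.65 ± 0.045 under CHIR99021 and 0.26 ± 0.045 under AICAR (limma adjusted p = 4.25e-05), but did not pass with scaling on the spike-in transcripts. The rises were Prdm14, described above, and Mbd4, a DNA glycosylase that binds methylated sites, at 0.36 ± 0.048 under CHIR99021 and 0.54 ± 0.048 under AICAR, which did not pass with that scaling either. The count of falls in this list was 4 with scaling on the spike-in transcripts and 3 with the treated arrays as 1 group, and that of rises 1 with the former and 4 with quantile normalization.

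The upstream sequences of 4 members were chosen, after their values were seen, to show where the searched motifs lie in genes described here. They are the 250 bases before the annotated start, from RefSeq on GRCm38.p6, 5′ to 3′ along the gene's strand. Sp5 (chr2:70474673-70474922 on the forward strand) and Nags (chr11:102145263-102145512 on the forward strand) rose, and capitals mark CTTTGAT, the core recognised by TCF/LEF factors, or its reverse complement. Klf4 (chr4:55532476-55532725 on the reverse strand) rose and Dnmt3l (chr10:78049592-78049841 on the forward strand, 1 of 3 annotated starts) fell, and capitals mark CACGTG, the palindromic E-box bound by Myc and by TFE3 and TFEB.
Sp5: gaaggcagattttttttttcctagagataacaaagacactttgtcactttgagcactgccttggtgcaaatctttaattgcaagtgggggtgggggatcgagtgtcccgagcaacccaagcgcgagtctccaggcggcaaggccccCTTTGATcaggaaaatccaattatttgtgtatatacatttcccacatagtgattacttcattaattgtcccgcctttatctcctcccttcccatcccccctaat
Nags: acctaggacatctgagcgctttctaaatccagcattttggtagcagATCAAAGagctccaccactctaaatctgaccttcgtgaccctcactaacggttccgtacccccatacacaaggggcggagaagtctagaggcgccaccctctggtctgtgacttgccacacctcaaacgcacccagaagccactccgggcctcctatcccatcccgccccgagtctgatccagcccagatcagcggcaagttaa
Klf4: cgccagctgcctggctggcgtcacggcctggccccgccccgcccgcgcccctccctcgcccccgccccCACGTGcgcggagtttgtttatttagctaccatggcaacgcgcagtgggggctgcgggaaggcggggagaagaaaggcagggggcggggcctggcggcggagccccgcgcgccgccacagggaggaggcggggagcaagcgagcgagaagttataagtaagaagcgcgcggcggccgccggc
Dnmt3l: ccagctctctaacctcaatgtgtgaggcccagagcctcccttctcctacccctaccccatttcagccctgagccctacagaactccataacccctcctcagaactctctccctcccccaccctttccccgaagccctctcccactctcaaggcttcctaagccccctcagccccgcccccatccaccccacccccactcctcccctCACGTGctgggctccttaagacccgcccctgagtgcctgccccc

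Both motifs and 3 others, none of which contains another, were searched on both strands in windows from 250 bases before to 50 bases after each start, and a match is a description of letters, not a bound site. CTTTGAT stood in 3.73% of all 32851 RefSeq windows and in 3.28% of the 12787 tested genes with a window, out of 16089 tested with a symbol. It was found in 4.15% of all shared rises and 2.94% of all shared falls, and 8.15% of rises and 5.1% of falls of at least 2-fold under both compounds, in counts 15 of 184 and 8 of 157 genes. CACGTG stood in 7.15% of windows and 10.9% of tested genes, in 10.7% of all shared rises and 10.4% of all shared falls, and 9.78% of rises and 5.1% of falls of at least 2-fold under both compounds. The ETS motif CCGGAAGT stood in 3.89% of windows and 7.45% of tested genes, in 4.81% of all shared rises and 7.84% of all shared falls, and 1.09% of rises and 0.637% of falls of at least 2-fold under both compounds. The forkhead motif GTAAACA stood in 3.65% of windows and 3.24% of tested genes, in 3.2% of all shared rises and 4.18% of all shared falls, and 2.17% of rises and 5.1% of falls of at least 2-fold under both compounds. The CRE motif TGACGTCA stood in 1.79% of windows and 3.23% of tested genes. It was found in 2.17% of all shared rises and 3.35% of all shared falls, and 1.63% of rises and 2.55% of falls of at least 2-fold under both compounds. In counts, of the 184 rises and 157 falls of at least 2-fold, CACGTG stood in 18 and 8 and the ETS motif in 2 and 1. The forkhead motif stood in 4 and 8 and the CRE motif in 3 and 4. Shares that rest on so few genes are imprecise.

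Nodal signalling genes fell more often than they rose, and BMP targets rose more often than they fell. In the Nodal and TGF-beta list 10 of 16 fell and 2 rose, 62.5% and 12.5%, with a median difference of -0.44. Lefty1, a secreted Nodal inhibitor that Nodal itself induces, had log2 signals of 4.10, 4.01 and 4.13 on the DMSO arrays, 1.04, 1.00 and 1.04 on the CHIR99021 arrays and 1.65, 1.35 and 1.55 on the AICAR arrays. It fell by 3.05 ± 0.077 under CHIR99021 and 2.57 ± 0.077 under AICAR (limma adjusted p = 1.37e-07). Its paralogue Lefty2 fell by 1.07 ± 0.067 under CHIR99021 and 1.11 ± 0.067 under AICAR (limma adjusted p = 3.56e-06). Pcsk6, a protease that activates Nodal, moved the other way, by 1.35 ± 0.060 under CHIR99021 and 0.94 ± 0.060 under AICAR (limma adjusted p = 1.65e-06). Fitted with the treated arrays as 1 group, 6 genes of the Nodal list fell.

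Of 12 BMP targets 6 rose and 0 fell, 50% beside 17.8% of all features, with a median difference of 0.60. Limma at an unadjusted p under 0.05 with the same array rule gave 0 falls, and without the array rule 3. The ligand gene Bmp4 had log2 signals of 1.96, 1.63 and 1.72 on the DMSO arrays, 3.90, 3.83 and 4.0 on the CHIR99021 arrays and 3.11, 2.92 and 2.89 on the AICAR arrays. It rose by 2.14 ± 0.10 under CHIR99021 and 1.20 ± 0.10 under AICAR (limma adjusted p = 3.11e-06). Id1, an inhibitor of bHLH factors and a direct BMP target, rose by 1.27 ± 0.079 under CHIR99021 and 0.61 ± 0.079 under AICAR and the homeobox gene Msx2 by 1.42 ± 0.081 under CHIR99021 and 0.80 ± 0.081 under AICAR (limma adjusted p = 1.76e-05 and 8.36e-06). Gata2, a zinc finger factor of trophoblast and blood, rose more under AICAR, by 2.15 ± 0.15 against 1.27 ± 0.15 under CHIR99021 (limma adjusted p = 2.15e-05).

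Wnt targets rose more often than they fell, by unequal amounts under the compounds. Of 25 tested 12 rose and 3 fell, 48% and 12%, and the median difference was 1.39 under CHIR99021 and 0.23 under AICAR. Sp5, a direct target that limits the Wnt response, had log2 signals of -3.09, -2.80 and -3.02 on the DMSO arrays, 4.93, 4.99 and 5.0 on the CHIR99021 arrays and -1.88, -1.84 and -1.85 on the AICAR arrays. Every AICAR array was above every DMSO array, by 1.11 ± 0.074 (limma adjusted p = 7.97e-06), and CHIR99021 raised the gene by 7.94 ± 0.074. Sp5 and Cdx1 did not pass when the treated arrays were fitted as 1 group, a fit in which the difference between the compounds counts as error. Cdx1, a homeobox target, rose by 6.51 ± 0.046 under CHIR99021 and 1.47 ± 0.046 under AICAR (limma adjusted p = 4.67e-09). Rnf43, a ubiquitin ligase that removes Wnt receptors, had signals of -3.33, -3.21 and -3.17 on the DMSO arrays, -0.47, -0.42 and -0.50 on the CHIR99021 arrays and -1.90, -1.89 and -1.82 on the AICAR arrays. It rose by 2.78 ± 0.056 under CHIR99021 and 1.37 ± 0.056 under AICAR (limma adjusted p = 1.37e-07). The ligand gene Wnt3 rose by 1.39 ± 0.19 under CHIR99021 and 1.01 ± 0.19 under AICAR, with 2 of 3 DMSO arrays above background. In the fit of the treated arrays as 1 group the falls among Wnt targets numbered 1.

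Genes of the FGF and ERK pathway fell more often than they rose. Of 25 tested 8 fell and 2 rose, 32% and 8% beside 13.1% and 17.8% of all features. Besides Egr1 and Fgf5, the falls included Etv1, an ETS factor, with log2 signals of 3.97, 3.98 and 4.01 on the DMSO arrays, 2.59, 2.41 and 2.50 on the CHIR99021 arrays and 2.59, 2.72 and 2.69 on the AICAR arrays. It fell by 1.49 ± 0.061 under CHIR99021 and 1.32 ± 0.061 under AICAR (limma adjusted p = 6.92e-07). Dusp5 and Dusp6, phosphatases that inactivate ERK, fell by 1.74 ± 0.28 under CHIR99021 and 1.66 ± 0.28 under AICAR and by 0.69 ± 0.056 under CHIR99021 and 2.15 ± 0.056 under AICAR (limma adjusted p = 6.20e-04 and 4.83e-07). Spry4, another feedback inhibitor, went opposite ways, 1.82 ± 0.13 under CHIR99021 and -1.66 ± 0.13 under AICAR, so it was no shared gene. Myc had signals of 1.02, 0.83 and 0.85 on the DMSO arrays, 0.34, 0.24 and 0.34 on the CHIR99021 arrays and -2.88, -2.91 and -2.66 on the AICAR arrays. It fell by 0.59 ± 0.083 under CHIR99021 and 3.72 ± 0.083 under AICAR, and the compounds differed by 3.13 ± 0.083 (limma adjusted p = 9.54e-08). Mycn fell by 1.00 ± 0.072 under CHIR99021 and 1.06 ± 0.072 under AICAR (limma adjusted p = 6.73e-06), and the compounds differed by 0.061 ± 0.072 (limma adjusted p = 0.49). Mga, a partner of Max, fell by 0.18 ± 0.064 under CHIR99021 and 0.48 ± 0.064 under AICAR and did not pass with scaling on the spike-in transcripts. Of the 12 genes of the Myc network 4 fell and 1 rose, 33.3% and 8.33%. With the treated arrays as 1 group, 1 of them fell. The FGF and ERK rises numbered 1 without DMSO array 1, DMSO array 2 or CHIR99021 array 2, 1 with the replicate block and 0 with scaling on the spike-in transcripts.

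Of 20 genes of the LIF receptor and STAT3 pathway 5 rose and 0 fell by limma, with 0 falls at an unadjusted p under 0.05 that met the array rule and 6 at that p without it. The rises were 25% of the list, not far from the 17.8% of all features. Klf4 and Tfcp2l1, given above, are on this list. Jak2, a kinase of cytokine receptors, rose by 0.72 ± 0.063 under CHIR99021 and 0.51 ± 0.063 under AICAR (limma adjusted p = 4.75e-05) and Bcl3, an IkappaB family member, by 0.75 ± 0.050 under CHIR99021 and 0.24 ± 0.050 under AICAR (limma adjusted p = 4.23e-05). Neither Jak2 nor Bcl3 passed with scaling on the spike-in transcripts, where 3 genes of the list rose. The median difference of the list, 0.064, lay close to the 0.041 of all features. With the treated arrays as 1 group, 3 rose, and the falls numbered 2 without DMSO array 2.

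**Figure D3:**
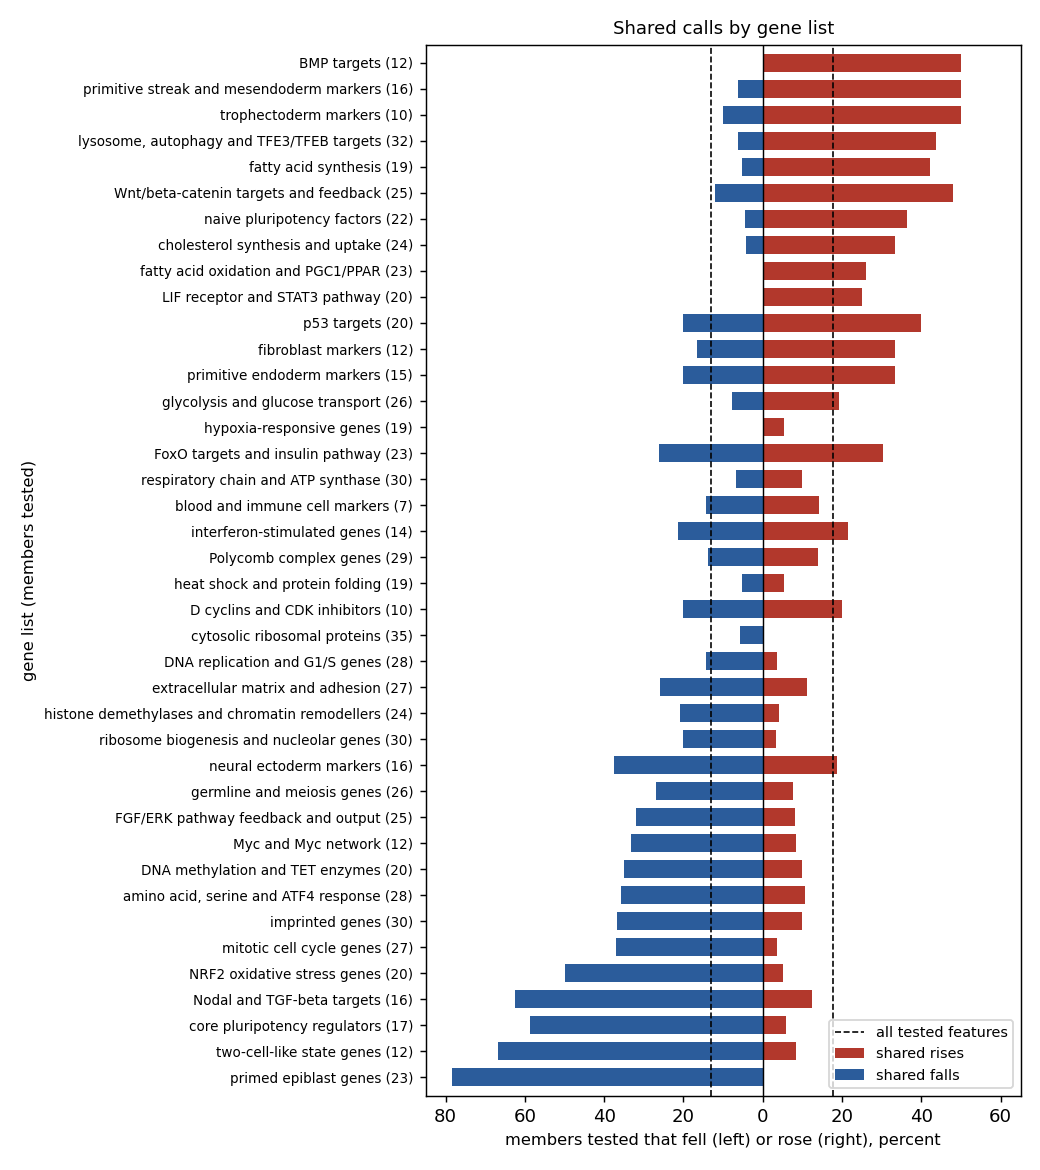
Percent of the tested members of each gene list that rose (right, red) or fell (left, blue) under both compounds, with the number tested in parentheses and the shares over all tested features, 17.8% and 13.1%, as dashed lines. Primed epiblast genes reach 78.3% on the left, and BMP targets reach 50% on the right with none on the left.

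Lysosomal and autophagy genes rose more often than they fell. Of 32 tested 14 rose and 2 fell, 43.8% and 6.25%, with a median difference of 0.35. Lamp2, a membrane protein of the lysosome, had log2 signals of 1.40, 1.42 and 1.64 on the DMSO arrays, 2.39, 2.51 and 2.53 on the CHIR99021 arrays and 2.59, 2.66 and 2.69 on the AICAR arrays. It rose by 0.99 ± 0.077 under CHIR99021 and 1.16 ± 0.077 under AICAR (limma adjusted p = 7.96e-06). Ctsb, the protease cathepsin B, had signals of 3.39, 3.39 and 3.44 on the DMSO arrays, 4.31, 4.34 and 4.38 on the CHIR99021 arrays and 4.18, 4.15 and 4.24 on the AICAR arrays. The rise was 0.94 ± 0.046 under CHIR99021 and 0.79 ± 0.046 under AICAR (limma adjusted p = 1.75e-06). Hexa, a subunit of beta-hexosaminidase, rose by 0.87 ± 0.070 under CHIR99021 and 0.69 ± 0.070 under AICAR and Mitf, a transcription factor of the family of TFEB, by 0.93 ± 0.087 under CHIR99021 and 1.19 ± 0.087 under AICAR (limma adjusted p = 2.36e-05 and 1.55e-05). With scaling on the spike-in transcripts 8 genes of this list rose.

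Genes of amino acid supply and stress fell more often than they rose. Of 28 genes in the amino acid, serine and ATF4 list 10 fell and 3 rose, 35.7% and 10.7%. Chac1, an enzyme that degrades glutathione and is induced by ATF4, had log2 signals of 3.54, 3.44 and 3.42 on the DMSO arrays, 1.96, 2.04 and 1.97 on the CHIR99021 arrays and 1.71, 1.49 and 1.47 on the AICAR arrays. It fell by 1.48 ± 0.074 under CHIR99021 and 1.91 ± 0.074 under AICAR (limma adjusted p = 7.41e-07). Slc7a3, a transporter of cationic amino acids, had signals of 5.49, 5.50 and 5.54 on the DMSO arrays, 4.43, 4.47 and 4.33 on the CHIR99021 arrays and 4.03, 4.17 and 4.14 on the AICAR arrays. It fell by 1.10 ± 0.057 under CHIR99021 and 1.40 ± 0.057 under AICAR (limma adjusted p = 9.00e-07). Cth, which makes cysteine, fell by 1.36 ± 0.061 under CHIR99021 and 0.81 ± 0.061 under AICAR and Trib3, a pseudokinase induced by stress, by 0.58 ± 0.077 under CHIR99021 and 0.77 ± 0.077 under AICAR (limma adjusted p = 2.29e-06 and 8.71e-05). Under scaling on the spike-in transcripts 6 genes of this list fell and 1 rose.

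NRF2 targets of the oxidative stress response fell more often than they rose, 10 of 20 against 1 that rose, 50% and 5%. Gclc and Gclm, the subunits of the enzyme that starts glutathione synthesis, fell by 0.48 ± 0.045 under CHIR99021 and 0.76 ± 0.045 under AICAR and by 0.34 ± 0.047 under CHIR99021 and 0.70 ± 0.047 under AICAR (limma adjusted p = 8.00e-06 and 2.54e-05). Srxn1, which repairs peroxiredoxins, fell by 0.68 ± 0.042 under CHIR99021 and 0.28 ± 0.042 under AICAR (limma adjusted p = 1.98e-05) and did not pass with scaling on the spike-in transcripts, where 5 genes of the list fell. Hmox1, heme oxygenase, was uneven between arrays, with signals of 3.29, 3.22 and 2.90 on the DMSO arrays, 2.33, 0.26 and 2.61 on the CHIR99021 arrays and -0.11, 2.07 and 0.57 on the AICAR arrays. The mean of both treatments passed (limma adjusted p = 0.0329), but CHIR99021 alone did not (limma adjusted p = 0.134). Without DMSO array 1, 2 or 3 the adjusted p was 0.0934, 0.0885 and 0.0678, and without AICAR array 1 or 3 0.0589 and 0.0629 in limma. With the treated arrays as 1 group, 4 NRF2 targets fell, and the count of rises was 4 with quantile normalization and 3 without AICAR array 3.

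Lipid genes rose more often than they fell. Of 24 genes of cholesterol synthesis and uptake 8 rose and 1 fell, 33.3% and 4.17%, with a median of 0.0045 under CHIR99021 and 0.56 under AICAR. Ebp, a sterol isomerase, rose by 0.90 ± 0.061 under CHIR99021 and 0.52 ± 0.061 under AICAR, Stard4, a carrier of cholesterol, by 0.45 ± 0.072 under CHIR99021 and 1.33 ± 0.072 under AICAR and Cyp51, a sterol demethylase, by 0.36 ± 0.042 under CHIR99021 and 1.04 ± 0.042 under AICAR. Of 19 genes of fatty acid synthesis 8 rose and 1 fell, 42.1% and 5.26%. Scd2, a desaturase, rose by 0.37 ± 0.051 under CHIR99021 and 0.91 ± 0.051 under AICAR and Elovl5, an elongase, by 0.30 ± 0.064 under CHIR99021 and 0.38 ± 0.064 under AICAR, while Gpam, which starts glycerolipid synthesis, fell by 0.74 ± 0.14 under CHIR99021 and 0.48 ± 0.14 under AICAR. With scaling on the spike-in transcripts 2 of the cholesterol genes and 1 of the fatty acid synthesis genes rose, and Cyp51, Scd2, Elovl5 and Gpam no longer passed. Of 23 genes of fatty acid oxidation 6 rose and 0 fell by limma, with 0 falls at an unadjusted p under 0.05 that met the array rule and 2 at that p without it. The rises were 26.1% of that list beside 17.8% of all features. Cpt1a, which admits fatty acids to mitochondria, had log2 signals of 3.02, 3.0 and 3.0 on the DMSO arrays, 3.81, 3.86 and 3.88 on the CHIR99021 arrays and 3.88, 3.76 and 3.68 on the AICAR arrays. It rose by 0.85 ± 0.058 under CHIR99021 and 0.77 ± 0.058 under AICAR (limma adjusted p = 7.75e-06). Fabp3, a fatty acid carrier, rose by 0.43 ± 0.071 under CHIR99021 and 1.02 ± 0.071 under AICAR, Pdk4, which blocks pyruvate oxidation, by 0.41 ± 0.075 under CHIR99021 and 1.64 ± 0.075 under AICAR and the nuclear receptor Pparg by 0.54 ± 0.050 under CHIR99021 and 0.43 ± 0.050 under AICAR. Cholesterol rises numbered 4 with normexp, 5 with quantile normalization and 3 with the treated arrays as 1 group, where 5 fatty acid synthesis genes rose. The falls in fatty acid oxidation numbered 1 without AICAR array 1.

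Carbohydrate and mitochondrial genes changed at rates near or below those of all features. Of 26 genes of glycolysis and glucose transport 5 rose and 2 fell. Aldoc, an aldolase, rose by 0.55 ± 0.056 under CHIR99021 and 1.59 ± 0.056 under AICAR and Slc2a3, a glucose transporter, by 0.93 ± 0.066 under CHIR99021 and 0.46 ± 0.066 under AICAR. Eno3, the muscle enolase, had log2 signals of 3.50, 3.54 and 3.46 on the DMSO arrays, 2.18, 2.15 and 2.19 on the CHIR99021 arrays and 2.19, 2.06 and 2.20 on the AICAR arrays. It fell by 1.32 ± 0.052 under CHIR99021 and 1.35 ± 0.052 under AICAR (limma adjusted p = 4.70e-07). Of 19 genes that respond to hypoxia 1 rose, P4ha2, a collagen hydroxylase, by 0.28 ± 0.054 under CHIR99021 and 1.5 ± 0.054 under AICAR, a call lost with scaling on the spike-in transcripts, and 0 fell by limma, with 0 falls at an unadjusted p under 0.05 that met the array rule and 4 at that p without it. Of 30 respiratory chain genes 3 rose and 2 fell, with Sdha at 0.24 ± 0.049 under CHIR99021 and 0.25 ± 0.049 under AICAR, a call that did not pass with scaling on the spike-in transcripts. Hypoxia rises numbered 3 without DMSO array 3 and 2 without CHIR99021 array 1, and falls 1 without DMSO array 1. Respiratory chain rises numbered 7 with quantile normalization and 0 with scaling on the spike-in transcripts, and falls 1 without DMSO array 1, DMSO array 2 or AICAR array 2 or with the replicate block.

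**Figure D4:**
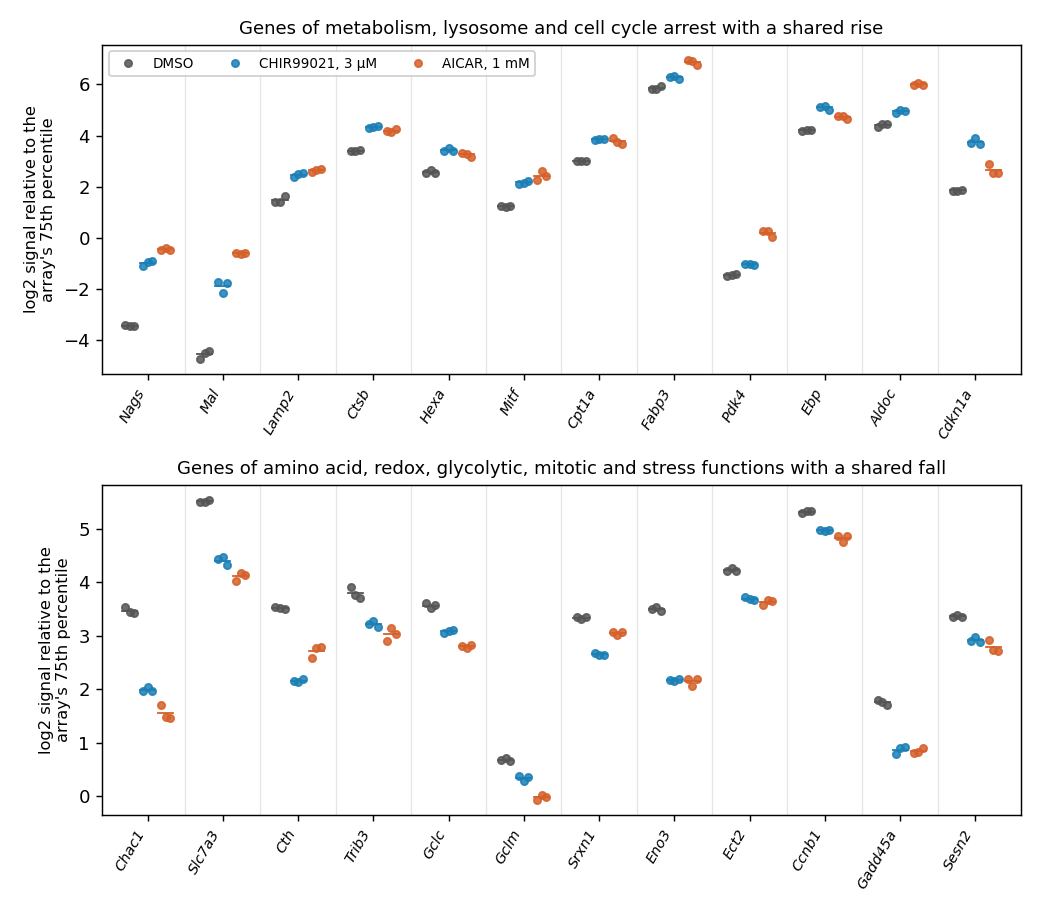
Log2 signal relative to the array's 75th percentile, 1 point per array and a bar at each group mean, for 12 genes with a shared rise (upper panel) and 12 with a shared fall (lower panel). In each gene all 6 treated arrays lie on the same side of the 3 DMSO arrays, with Nags rising by 2.44 and 2.98 and Chac1 changing by -1.48 and -1.91 under CHIR99021 and AICAR.

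Cell cycle genes of mitosis were slightly lower. Of 27 tested 10 fell and 1 rose, 37% and 3.7%, with a median difference of -0.22. By compound the median of the list was -0.26 under CHIR99021 and only -0.073 under AICAR. Ccnb1, the mitotic cyclin B1, had log2 signals of 5.29, 5.33 and 5.34 on the DMSO arrays, 4.98, 4.96 and 4.97 on the CHIR99021 arrays and 4.87, 4.76 and 4.87 on the AICAR arrays. It fell by 0.34 ± 0.046 under CHIR99021 and 0.48 ± 0.046 under AICAR (limma adjusted p = 8.06e-05). Ect2, an exchange factor of cytokinesis, fell by 0.53 ± 0.045 under CHIR99021 and 0.59 ± 0.045 under AICAR and Ube2c, a ubiquitin-conjugating enzyme of the anaphase-promoting complex, by 0.37 ± 0.073 under CHIR99021 and 0.52 ± 0.073 under AICAR. The rise was Aurkb, a mitotic kinase, at 1.72 ± 0.078 under CHIR99021 and 1.48 ± 0.078 under AICAR (limma adjusted p = 1.16e-06). Of 28 genes of DNA replication 4 fell and 1 rose, 14.3% and 3.57% beside 13.1% and 17.8% of all features. Ccne1, cyclin E1, was among them at -0.28 ± 0.063 under CHIR99021 and -0.50 ± 0.063 under AICAR. Ccne2, cyclin E2, stood at 2.30 ± 0.50 under CHIR99021 and 1.55 ± 0.50 under AICAR with 1 of 3 DMSO arrays above background. Neither passed with scaling on the spike-in transcripts, where 0 replication and 5 mitotic genes fell. The replication falls numbered 8 with normexp and 2 with the treated arrays as 1 group, and the rises 2 without CHIR99021 array 3 or AICAR array 3.

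Of 20 p53 targets 8 rose and 4 fell, 40% and 20%. Cdkn1a, the inhibitor p21 of cyclin-dependent kinases, had log2 signals of 1.84, 1.85 and 1.88 on the DMSO arrays, 3.71, 3.92 and 3.67 on the CHIR99021 arrays and 2.89, 2.55 and 2.53 on the AICAR arrays. The probe with the higher signal rose by 1.91 ± 0.11 under CHIR99021 and 0.80 ± 0.11 under AICAR (limma adjusted p = 1.30e-05), while its other probe gave a mean difference of 0.13. Perp, a membrane protein of cell death, rose by 0.47 ± 0.063 under CHIR99021 and 1.35 ± 0.063 under AICAR. Gadd45a, a stress sensor, fell by 0.88 ± 0.055 under CHIR99021 and 0.91 ± 0.055 under AICAR and Sesn2, an inhibitor of mTORC1, by 0.44 ± 0.065 under CHIR99021 and 0.57 ± 0.065 under AICAR (limma adjusted p = 3.63e-06 and 1.60e-04). With scaling on the spike-in transcripts 2 p53 targets rose and 2 fell, and with the treated arrays as 1 group, 5 rose. Cdkn1c, the inhibitor p57, fell by 2.59 ± 0.066 under CHIR99021 and 0.93 ± 0.066 under AICAR and Cdkn2c rose by 0.64 ± 0.085 under CHIR99021 and 1.25 ± 0.085 under AICAR. Cyclin D2, encoded by Ccnd2, fell by 0.29 ± 0.054 under CHIR99021 and 0.77 ± 0.054 under AICAR.

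Of 35 genes of cytosolic ribosomal proteins 2 fell and 0 rose by limma, with 0 rises at an unadjusted p under 0.05 that met the array rule and 1 at that p without it. Rpl19 was at -0.12 ± 0.052 under CHIR99021 and -0.30 ± 0.052 under AICAR, and it did not pass under CHIR99021 alone (limma adjusted p = 0.0844) or with scaling on the spike-in transcripts. The count of falls in that list was 1 without DMSO array 2 or 3, CHIR99021 array 1 or 3, or AICAR array 1 or 2, 5 without CHIR99021 array 2 and 5 with normexp. Its count of rises was 1 without DMSO array 2 or AICAR array 1 and 2 with quantile normalization. Of 30 genes of ribosome biogenesis 6 fell and 1 rose, 20% and 3.33%, with a median of 0.10 under CHIR99021 and -0.66 under AICAR. The falls of this list numbered 1 with scaling on the spike-in transcripts, 3 with normexp and 0 with the treated arrays as 1 group. Ncl, nucleolin, was at -0.37 ± 0.14 under CHIR99021 (limma adjusted p = 0.0611) and -0.89 ± 0.14 under AICAR (limma adjusted p = 9.30e-04), and Bop1 and Rrp9 likewise did not pass under CHIR99021 alone (limma adjusted p = 0.0917 and 0.0617).

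Genes of the rare state that resembles the embryo at the 2-cell stage fell more often than they rose. Of 12 tested 8 fell and 1 rose, 66.7% and 8.33%. The median was much lower under AICAR, at -2.77, than under CHIR99021, at -0.66. Zscan4f, a telomere regulator, had log2 signals of 1.74, 1.60 and 1.63 on the DMSO arrays, 0.68, 0.74 and 0.78 on the CHIR99021 arrays and -2.16, -2.34 and -2.13 on the AICAR arrays. It fell by 0.92 ± 0.070 under CHIR99021 and 3.87 ± 0.070 under AICAR (limma adjusted p = 1.58e-07). Zscan4a and Zscan4c fell by 0.80 ± 0.092 under CHIR99021 and 3.76 ± 0.092 under AICAR and by 0.80 ± 0.12 under CHIR99021 and 3.61 ± 0.12 under AICAR. These copies are nearly identical, their probes may read the same transcripts, and their counts are not independent. Usp17lb was not well above background under AICAR, at least 9.68-fold lower. With the treated arrays fitted as 1 group, 0 genes of this list fell, and with probes well above background on all 9 arrays 5.

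Germline and imprinted genes also fell more often than they rose. Of 26 germline and meiosis genes 7 fell and 2 rose, 26.9% and 7.69% beside 13.1% and 17.8% of all features. The median difference of that list was only -0.051, with -0.33 under CHIR99021 and 0.068 under AICAR. Without the array rule, limma at an unadjusted p under 0.05 put 11 of its genes lower and 7 higher than DMSO. Zcwpw1, a meiotic histone reader, fell by 1.49 ± 0.060 under CHIR99021 and 0.70 ± 0.060 under AICAR, Stra8, the meiosis inducer, by 1.22 ± 0.13 under CHIR99021 and 0.62 ± 0.13 under AICAR, Meioc by 2.12 ± 0.082 under CHIR99021 and 0.50 ± 0.082 under AICAR and Tex19.1 by 0.47 ± 0.061 under CHIR99021 and 1.55 ± 0.061 under AICAR. Of 30 imprinted genes 11 fell and 3 rose, 36.7% and 10%. Meg3, a maternally expressed noncoding RNA, had log2 signals of 5.17, 5.16 and 5.18 on the DMSO arrays, 3.67, 3.83 and 3.78 on the CHIR99021 arrays and 4.11, 3.89 and 3.84 on the AICAR arrays. It fell by 1.41 ± 0.078 under CHIR99021 and 1.22 ± 0.078 under AICAR (limma adjusted p = 2.99e-06). Dlk1, the paternally expressed gene of the same cluster, fell by 0.96 ± 0.047 under CHIR99021 and 1.40 ± 0.047 under AICAR and Mest by 0.91 ± 0.053 under CHIR99021 and 1.43 ± 0.053 under AICAR (limma adjusted p = 4.87e-07 and 8.70e-07). Taking the treated arrays as 1 group, 4 germline genes fell.

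Polycomb genes changed at shares near or below those of all features. Of 29 tested 4 rose and 4 fell, 13.8% each way beside 17.8% and 13.1%. Cbx7, a chromobox subunit, had log2 signals of -3.61, -3.86 and -3.66 on the DMSO arrays, -1.71, -1.82 and -1.72 on the CHIR99021 arrays and -3.14, -2.77 and -2.36 on the AICAR arrays. It rose by 1.96 ± 0.18 under CHIR99021 and 0.96 ± 0.18 under AICAR and Phc1, a polyhomeotic subunit, fell by 1.24 ± 0.088 under CHIR99021 and 0.68 ± 0.088 under AICAR (limma adjusted p = 1.19e-04 and 2.80e-05). The probes of Phc3 disagreed, with mean differences of -0.46 and 0.69. Of 24 histone demethylases and remodellers 5 fell and 1 rose, 20.8% and 4.17%, with Kdm6a, a demethylase of histone H3 lysine 27, at -0.58 ± 0.068 under CHIR99021 and -0.54 ± 0.068 under AICAR and Kdm3b, a demethylase of lysine 9, at 0.84 ± 0.084 under CHIR99021 and 0.46 ± 0.084 under AICAR. Phc3 and Kdm3b did not pass with scaling on the spike-in transcripts. The falls of the demethylase and remodeller list numbered 2 with that scaling, 1 with the treated arrays as 1 group and 8 when the probes of a gene were averaged, and those of the Polycomb list 2 and 2 under the first pair, with 1 and 2 rises.

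Markers of other cell types were checked in the same arrays. The cells were labelled embryonic stem cells, and all 22 naive and 17 core pluripotency genes were well above background in DMSO. Summed linear signals, in units of each array's 75th percentile, of the naive list were 718 to 740 on the DMSO arrays, 831 to 862 on the CHIR99021 arrays and 785 to 835 on the AICAR arrays, and those of the core list 479 to 488 on the DMSO arrays, 342 to 350 on the CHIR99021 arrays and 286 to 308 on the AICAR arrays. Of 12 fibroblast genes 4 rose and 2 fell. Pdgfrb, a growth factor receptor of mesenchyme, had log2 signals of -2.69, -2.77 and -2.77 on the DMSO arrays, -0.63, -0.62 and -0.60 on the CHIR99021 arrays and -0.30, -0.54 and -0.43 on the AICAR arrays. It rose by 2.13 ± 0.065 under CHIR99021 and 2.32 ± 0.065 under AICAR (limma adjusted p = 1.58e-07). Fbln1, a matrix protein, rose by 1.25 ± 0.092 under CHIR99021 and 0.89 ± 0.092 under AICAR and the receptor gene Pdgfra by 0.69 ± 0.075 under CHIR99021 and 0.90 ± 0.075 under AICAR, while Col1a2, a collagen chain, fell by 0.48 ± 0.054 under CHIR99021 and 1.29 ± 0.054 under AICAR. The list's summed signals were 41.4 to 43.1 on the DMSO arrays, 56.8 to 58.2 on the CHIR99021 arrays and 43.2 to 49.1 on the AICAR arrays, and Postn, Lum and Fap were not above background on any array.

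Trophectoderm and mesendoderm markers rose more often than they fell. Of 10 trophectoderm genes 5 rose and 1 fell, 50% and 10%. Their summed signals were 13.6 to 14.3 on the DMSO arrays, 23.5 to 24.7 on the CHIR99021 arrays and 23.6 to 23.9 on the AICAR arrays. Tpbpa was not above background on any array. Eomes, a T-box factor of both trophoblast and mesendoderm, rose by 1.15 ± 0.064 under CHIR99021 and 0.72 ± 0.064 under AICAR (limma adjusted p = 6.17e-06) and Tfap2c, a factor of trophoblast and germ cells, by 0.58 ± 0.049 under CHIR99021 and 0.66 ± 0.049 under AICAR. Psg17 rose by 1.57 ± 0.32 under CHIR99021 and 1.11 ± 0.32 under AICAR with 1 of 3 DMSO arrays above background, and Gata3, a trophoblast factor, fell by 1.26 ± 0.30 under CHIR99021 and 1.60 ± 0.30 under AICAR with 1 array above background under each compound, and its call was lost with normexp background correction. Markers of the primitive streak and of mesendoderm numbered 16, of which 8 rose and 1 fell, 50% and 6.25%. Their summed signals were 11.9 to 12.6 on the DMSO arrays, 29 to 31.6 on the CHIR99021 arrays and 14.4 to 16.3 on the AICAR arrays. Mixl1, Wnt3a and Cer1 were above background on no array. Gsc, the organiser homeobox gene goosecoid, had log2 signals of -3.83, -4.75 and -4.31 on the DMSO arrays, -2.46, -2.19 and -2.25 on the CHIR99021 arrays and -1.68, -1.81 and -1.68 on the AICAR arrays. It rose by 2.00 ± 0.20 under CHIR99021 and 2.58 ± 0.20 under AICAR (limma adjusted p = 2.33e-05). When scaled on the spike-in transcripts, 5 primitive streak and mesendoderm markers rose, and the trophectoderm falls numbered 2 without CHIR99021 array 3.

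Primitive endoderm markers were mixed, with 5 rises and 3 falls of 15 and summed signals of 28.9 to 31.3 on the DMSO arrays, 31.8 to 32.5 on the CHIR99021 arrays and 30.7 to 33.9 on the AICAR arrays. Sox17, an endoderm factor, rose by 1.22 ± 0.076 under CHIR99021 and 0.74 ± 0.076 under AICAR, whereas Dab2, an endocytic adaptor, fell by 1.64 ± 0.063 under CHIR99021 and 1.91 ± 0.063 under AICAR and Cubn, the receptor cubilin that works with Lrp2, by 1.26 ± 0.098 under CHIR99021 and 2.82 ± 0.098 under AICAR (limma adjusted p = 3.32e-07 and 1.10e-06). Markers of neural ectoderm numbered 16, of which 6 fell and 3 rose, with summed signals of 19.2 to 20.3 on the DMSO arrays, 22.2 to 22.9 on the CHIR99021 arrays and 9.64 to 10.3 on the AICAR arrays. Map2, a microtubule protein of neurons, rose by 1.19 ± 0.077 under CHIR99021 and 1.83 ± 0.077 under AICAR. The probes of Sox1, a neural precursor factor, disagreed, with mean differences of -1.30 and 0.32. Of 7 blood and immune genes 1 rose and 1 fell, and the summed signals were 14.7 to 15.2 on the DMSO arrays, 16.4 to 17.4 on the CHIR99021 arrays and 16.9 to 19.7 on the AICAR arrays. Blood and immune rises numbered 2 without DMSO array 3 or AICAR array 3, and falls 2 without AICAR array 1. Scaled on the spike-in transcripts, 2 primitive endoderm markers rose, and with each probe on its own 3 neural markers fell. The part of other cell types in these changes was not tested.

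Members of the shared response still differed between the compounds. CHIR99021 and AICAR differed by limma at an adjusted p under 0.05 for 2413 of the 4794 rises (50.3%) and 2202 of the 3523 falls (62.5%), beside 60.8% of all tested features, made up of 36.2% of the tested features higher under CHIR99021 and 24.6% higher under AICAR. Among the rises that differed, CHIR99021 was further from DMSO in 1250 and AICAR in 1163. Among the falls, AICAR was further in 1590 and CHIR99021 in 612, and the median fall was -0.41 under CHIR99021 and -0.61 under AICAR. The compounds lay within 1.5-fold of each other for 3938 rises and 2590 falls, and over 2-fold apart for 323 and 413 (6.74% and 11.7%, beside 14.1% of all features). The array rule asks for both compounds on the same side of DMSO, which limits how far they can lie apart. With the treated arrays as 1 group, that difference counts as error. Among the named genes that then did not pass were Sp5, Cdx1, Otx2, Lef1, Tbx3, Myc, Mga, Bcl3, Pdk4, P4ha2, Meioc, Tex19.1 and the Zscan4 copies. Cnga4, Otop2, Degs2, Espn, Thbs2, Myadml2, Gm11757, Vrtn and Platr8, given below as most unequal, did not pass either. The same held for Gbp2, Usp17lb, Ncl, Rpl19, Actb and Hmox1.

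The most unequal rises on the CHIR99021 side were Sp5, Cdx1 and Cnga4, a subunit of cyclic nucleotide-gated channels, and on the AICAR side Otop2, a proton channel, Degs2, a sphingolipid hydroxylase, and Espn, an actin-bundling protein. Espn had log2 signals of -2.64, -2.50 and -2.59 on the DMSO arrays, -2.38, -2.48 and -2.47 on the CHIR99021 arrays and 0.40, 0.32 and 0.31 on the AICAR arrays. CHIR99021 alone did not pass against DMSO (limma adjusted p = 0.0809), and the gene met the rule by a narrow margin, which it lost with quantile normalization and with scaling on the spike-in transcripts. Otop2 was not well above background in DMSO or under CHIR99021, and was at least 16.1-fold higher under AICAR. Its place among the shared rises rests on CHIR99021 and DMSO signals that were both not well above background. Degs2 was not well above background in DMSO and at least 9.29-fold higher under AICAR, with 1 CHIR99021 array above background. Among the falls Vrtn, a DNA-binding protein linked to vertebral number, had signals of 0.39, 0.41 and 0.46 on the DMSO arrays, -0.30, -0.21 and -0.32 on the CHIR99021 arrays and -4.13, -4.34 and -4.11 on the AICAR arrays. It fell by 0.70 ± 0.070 under CHIR99021 and 4.61 ± 0.070 under AICAR (limma adjusted p = 1.37e-07). Gm11757 and Platr8, a noncoding RNA, were not well above background under AICAR only, at least 8.1-fold and 7.63-fold lower, and CHIR99021 alone did not pass for either (limma adjusted p = 0.21 and 0.536). Thbs2, thrombospondin 2, and Myadml2 were not well above background under CHIR99021 only, at least 5.88-fold and 6.05-fold lower, and AICAR alone did not pass (limma adjusted p = 0.141 and 0.227). Gm11757, Platr8, Thbs2 and Myadml2 all lost their call with normexp background correction.

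**Figure D5:**
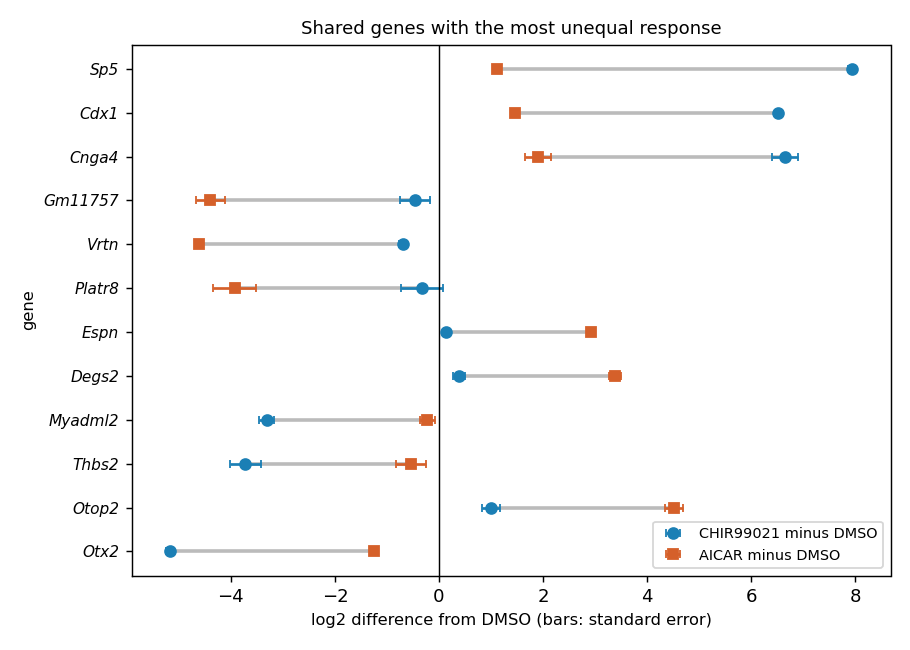
Log2 difference from DMSO under CHIR99021 (circles) and AICAR (squares), with standard errors of the limma fit, for the 12 shared genes with the largest difference between the compounds. Sp5 changed by 7.94 and 1.11 and Vrtn by -0.70 and -4.61 under CHIR99021 and AICAR, and the gray line joins both values of a gene.

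The rule has a sharp edge. Just inside it, Acsl4 had log2 signals of 1.47, 1.38 and 1.43 on the DMSO arrays, 1.47, 1.47 and 1.59 on the CHIR99021 arrays and 1.89, 2.06 and 1.99 on the AICAR arrays, and Actb, the beta-actin gene, had 8.70, 8.82 and 8.81 on the DMSO arrays, 8.62, 8.70 and 8.55 on the CHIR99021 arrays and 8.21, 8.20 and 8.23 on the AICAR arrays. In each, at least 1 treated array nearly touched a DMSO array. Fabp2 and Mettl21a lay just inside as well, with mean differences of 0.39 ± 0.11 and -0.16 ± 0.058. With 1 array left out the adjusted p in limma lay between 0.0103 and 0.0889 for Fabp2, whose call was lost without DMSO array 1 or 3, and between 0.0403 and 0.156 for Mettl21a, whose call held only without AICAR array 3. Just outside, Ckap4 had signals of 1.61, 1.58 and 1.61 on the DMSO arrays, 1.95, 1.97 and 1.96 on the CHIR99021 arrays and 1.61, 1.64 and 1.71 on the AICAR arrays and Selenos 2.37, 2.36 and 2.41 on the DMSO arrays, 2.36, 2.32 and 2.29 on the CHIR99021 arrays and 1.45, 1.56 and 1.54 on the AICAR arrays. Mosmo and Fam241a, also just outside, had mean differences of 0.16 ± 0.040 and -0.38 ± 0.055.

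The direction of the shared response varied with the brightness of the probe on the DMSO arrays. The features well above background on all 9 arrays were put in 4 equal groups by mean DMSO signal. From dimmest to brightest, rises made up 21.2%, 25.6%, 19.5% and 10.5%, and falls 5.26%, 14.3%, 17.4% and 18.1%. The DMSO arrays are also the baseline of each call. A feature that is low in DMSO by noise is thus both placed lower and more easily called a rise, and the reverse holds for falls. The part that brightness plays in each gene's call was not tested.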

How the data were processed

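RNA of 9 samples was hybridised to Agilent arrays, 3 each with DMSO, CHIR99021 and AICAR. The authors deposited Feature Extraction output (version 10.7, per the submitters' processing notes, and 10.7.3.1, per the file headers), whose processed signals are background-corrected intensity values on a linear scale, and a table of log2 values per probe deposited with the series, with its centring not given in the sources used here. Main values were log2 processed signals from which the 75th percentile of the array was subtracted. Control spots and outlier spots did not enter, and repeated spots were averaged per probe. A probe well above background on 3 or more of 9 arrays was kept, 37739 of 55681, and a gene was represented by its brightest probe by mean signal over all arrays. Features without a symbol stayed in the fit.

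One limma fit (R 4.3.3, limma 3.58.1, and the data.table package in version 1.17.8) held all 9 arrays with a mean per group, and p-values were adjusted by Benjamini-Hochberg over 26864 features at 0.05. A shared call needed the array rule and an adjusted p under 0.05 for the mean of both treatments. Errors are standard errors of that fit. Of features whose arrays met the rule, 85 above and 77 below DMSO did not pass. Scripts were tested on simulated data.

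Genes named are the 12 rises and 12 falls with the largest smaller change, up to 4 members of each list by the same rank, 20 genes named whatever their result, the genes nearest the edge of the rule and those with the largest difference between compounds, and a few of these are not reported here. The members and lists were chosen with earlier results of these data known. Same-numbered arrays did not deviate together, with correlations of -0.0549 to 0.0877, so replicate numbers were not treated as pairs. Alternatives changed the background correction, scaling, filter, probe rule, samples and fit. Normexp used the median signal in place of the planned mean signal, chosen after seeing the data. Probes were named from the files, and upstream sequences from RefSeq on GRCm38.p6 were matched by symbol. The number of arrays limits the precision.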

Additional observations from a re-analysis of the deposited data

Results flagged for a closer look

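12 members of the shared response stood out because the effects of CHIR99021 and AICAR differed in size by the limma contrast between them, taken as the 3 largest differences in each direction among rises and among falls. CHIR99021 minus AICAR was 6.83 for Sp5 (limma adjusted p = 4.67e-09), 5.04 for Cdx1 (2.31e-09) and 4.74 for Cnga4 (1.98e-06), rises that were larger under CHIR99021. Cnga4 had log2 signals of -8.34, -8.41 and -7.63 on the DMSO arrays, -1.41, -1.55 and -1.46 on the CHIR99021 arrays and -6.42, -6.48 and -5.74 on the AICAR arrays, and 1 AICAR array and no DMSO array was well above background. CHIR99021 minus AICAR was -3.51 for Otop2 (limma adjusted p = 1.49e-06), -3.0 for Degs2 (4.79e-07) and -2.79 for Espn (3.22e-08), rises that were larger under AICAR.

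Among the falls, the contrast was -3.92 for Otx2 (limma adjusted p = 2.06e-08), -3.18 for Thbs2 (3.62e-05) and -3.09 for Myadml2 (1.26e-06), which were lower under CHIR99021. The same contrast was 3.93 for Gm11757 (limma adjusted p = 9.70e-06), 3.92 for Vrtn (2.06e-08) and 3.60 for Platr8 (1.20e-04), which were lower under AICAR. Where a group was not well above background, the contrast is a difference of measured signals and no fold change. Otop2, Degs2 and Cnga4 passed the background filter through treated arrays alone, Otop2 through AICAR arrays only. As for the other rises not well above background on any DMSO array, their p-values are not independent of that filter.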

How the results depend on the processing

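Scaling on the E1A spike-in transcripts gave 1855 shared rises, 1987 shared falls and 1339 shared genes that differed between the compounds, against 4794, 3523 and 4615, and kept 3704 of the 8317 members (44.5%). The median spike-in signal ranged from 11.18 to 11.57 (log2) within DMSO alone, and the cause of the lower counts was not tested. The treated arrays as 1 group gave 1962 falls and 3294 rises, since differences between the compounds then count as error. A minimum of 2-fold under both left 382 rises, 323 falls and 392 that differed between compounds. The other alternatives (normexp, quantile, the deposited table, both filters, both probe rules) kept these 3 counts within 1.5 times. Leaving out 1 array at a time gave 4932 to 5292 rises, 3530 to 3768 falls and 4379 to 4918 differing between compounds. The array rule is easier to meet with fewer arrays, so these higher counts of rises and falls say little about stability. With the replicate number as a block there were 4708 rises, 3438 falls and 4337 differing, and 0 of 9 same-numbered pairs of arrays correlated over 0.1. Of 3747 values of 189 named genes under the alternatives, the 2-fold minimum included, 278 no longer met the rule, 26 newly met it and 1 reversed. That gene was Itgam, at -0.033 (limma adjusted p = 0.522) with the mean of its probes, which disagreed. These counts cover the named genes only. Among all 8317 members, averaging probes per gene kept 7499 (90.2%) and put 22 in the opposite direction. Fitting probes separately kept 7067 (85%) and put 12 in the opposite direction. Normexp on the mean signal was not run, and the median signal took its place.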

Other observations

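Gene groups not described above moved in both directions. Of 23 FoxO targets and insulin pathway genes 7 rose and 6 fell, against 2 and 2 with scaling on the spike-in transcripts and 4 and 3 with the treated arrays as 1 group. Fbxo32 and Trim63, ubiquitin ligases of muscle atrophy, fell by 1.84 ± 0.12 under CHIR99021 and 0.80 ± 0.12 under AICAR and by 0.65 ± 0.082 under CHIR99021 and 0.59 ± 0.082 under AICAR, with 2 of 3 CHIR99021 arrays above background for Fbxo32 (limma adjusted p = 3.02e-05 and 1.91e-04). Bcl6, a transcriptional repressor, rose by 1.05 ± 0.064 under CHIR99021 and 1.09 ± 0.064 under AICAR (limma adjusted p = 3.16e-06). Of 27 genes of matrix and adhesion 7 fell and 3 rose, against 4 and 1 with scaling on the spike-in transcripts. Krt8, keratin 8, rose by 0.73 ± 0.073 under CHIR99021 and 1.87 ± 0.073 under AICAR and Col18a1, a basement membrane collagen, fell by 1.25 ± 0.049 under CHIR99021 and 1.08 ± 0.049 under AICAR (limma adjusted p = 2.27e-06 and 6.07e-07). Of 14 interferon-stimulated genes 3 rose and 3 fell, with B2m, the light chain of MHC class I, at 0.82 ± 0.047 under CHIR99021 and 0.57 ± 0.047 under AICAR and Gbp2, a guanylate-binding protein, at -2.88 ± 0.11 under CHIR99021 and -0.35 ± 0.11 under AICAR. With scaling on the spike-in transcripts 1 of them rose, and with the treated arrays as 1 group, 1 fell. Of 19 heat shock and folding genes 1 rose and 1 fell, the fall being Xbp1, a factor of the unfolded protein response, at -0.45 ± 0.049 under CHIR99021 and -0.70 ± 0.049 under AICAR. The rises numbered 0 without DMSO array 1 or 2, and the falls 2 without CHIR99021 array 1.

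The position of the larger changes was looked at after their values were seen. Of the shared genes changed at least 2-fold under both compounds, 437 matched RefSeq protein-coding genes, and 20 pairs of them were direct neighbours in the RefSeq order. In 19 pairs both genes had the same call, 10 with rises and 9 with falls. The exception was Dok2, which fell, beside Gfra2, which rose. Bhmt2 and Dmgdh, described above, were neighbours on chromosome 13, as were Serpinb1a and Serpinb1c. Some pairs, such as Serpinb1a and Serpinb1c, belong to 1 gene family, and whether their probes read each other's transcripts was not tested. Hoxd4 and Hoxd1 on chromosome 2 rose together, and Casq1 and Atp1a4 on chromosome 1 fell together. How often neighbours share a call among all tested genes was not computed.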
